A study of Ovis aries with 20 samples.

Results

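The genes for estrogen receptors α and β (ESR1 and ESR2), the nuclear progesterone receptor (PGR), the glucocorticoid receptor (NR3C1) and the progesterone receptor membrane component PGRMC1 were followed through the granulosa and theca layers of antral follicles of adult sheep. These 5 genes were chosen by name from the 28524 genes of the table, by no rule on measured values, but with earlier results of these data known. Each was found as 1 row, and all 5 passed the filter on low values in every comparison. Between gestation days 30 and 90 the mothers had been injected 2 times a week with 100 mg testosterone propionate (1.2 mg/kg) or with vehicle, and their offspring are called prenatal T animals and controls. The offspring were studied as adults, at 21 months. Estrus was synchronized in both groups with 10 mg doses of prostaglandin F2 alpha, 2 in number and separated by 11 days, and the ovaries were removed 18 h after the final dose. Granulosa cells, the inner layer that makes estradiol, and theca cells, the surrounding layer that makes androgen, were microdissected from 14 µm ovarian sections, and material from more than 1 antral follicle of an animal was pooled by layer. The 19 libraries used were granulosa cells of controls 224, 244, 246 and 268 (n = 4) and of prenatal T sheep 209, 210, 230, 276 and 315 (n = 5), and theca cells of controls 139, 224, 244, 246 and 268 (n = 5) and of the same prenatal T sheep (n = 5). Granulosa cells of control 139 were not analysed here.

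ESR1, ESR2, PGR and NR3C1 are nuclear receptors, transcription factors that a steroid activates. Hsp90 and its cochaperones keep several of them in a form that binds hormone, and the bound receptor recruits coactivators or corepressors to DNA. PGRMC1 is a heme-binding membrane protein of another family. In the follicle, ESR2 is known as the main estrogen receptor of granulosa cells, ESR1 is commonly placed in theca and stroma, and PGR is best known for its induction in granulosa cells by the ovulatory surge of luteinizing hormone.

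Both libraries of prenatal T sheep 209 stood apart and lacked steroid and hormone markers of the layers they are labelled as. AMH and FSHR, granulosa genes, and CYP17A1, the theca enzyme of androgen synthesis, were at 0 in both, and INSL3, a theca hormone, had 1 read in each. In the other libraries AMH was 2629 to 7774 normalized counts in granulosa and 327 to 1569 in theca, and CYP17A1 was 109 to 248 and 585 to 2523. The summed level of 11 markers of ovarian surface and reproductive tract epithelium was 89575 in its library labelled granulosa and 22046 in its library labelled theca, against 283 to 4382 elsewhere. The summed level of 6 immune markers was 13037 and 16070 against 172 to 1984. Among the other 17 libraries, the sum of 6 granulosa markers was 18575 to 57412 in granulosa and 6567 to 15854 in theca, and the sum of 9 theca markers was 20510 to 79158 and 569711 to 858237. In the libraries of sheep 209 labelled granulosa and theca the granulosa markers summed to 63.3 and 230.3, with 3 of 6 at 0 in each. Its theca markers summed to 19336 and 358488, with 1 of 9 at 0, so its library labelled theca held stromal markers of that layer, among them the collagen COL1A1 at 127254 against 250557 to 427685 in other theca libraries. Results for the 5 genes are therefore given with sheep 209 and without it. Libraries held 12.7 to 26.0 M reads, 19.8 ± 5.25 M in control granulosa (SD, n = 4) and 14.2 ± 1.38 M in prenatal T granulosa (n = 5), so the controls were deeper in that layer. In theca they held 15.9 ± 1.48 M in controls and 14.7 ± 0.582 M in prenatal T animals (n = 5 each).

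Levels are normalized counts, that is, a gene's reads scaled by the size factor of each library. They compare 1 gene across libraries and not different genes, since they are not divided by gene length. Differences are on the log2(value + 1) scale with their standard error (SE), p is adjusted over all genes of the comparison, and a gene is called at an adjusted p under 0.05.

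**Figure D1:**
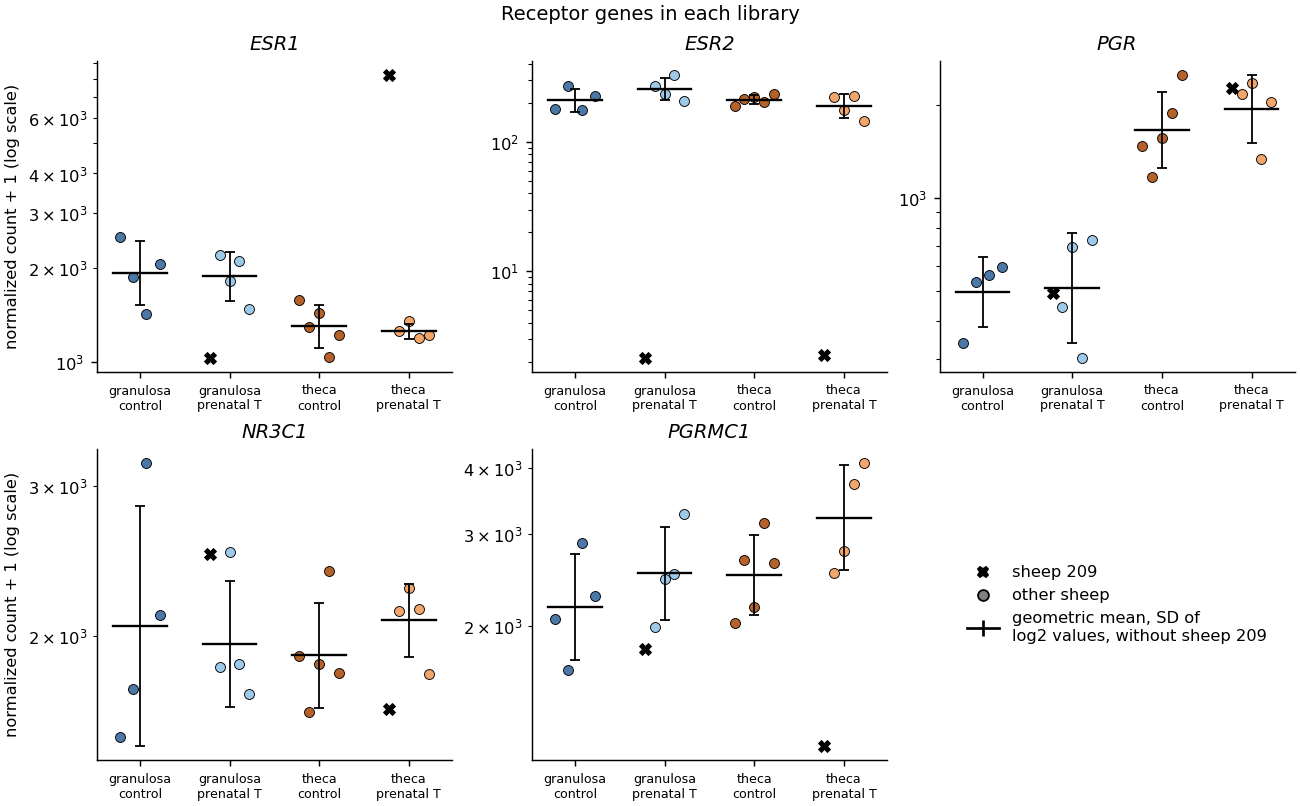
Normalized counts plus 1 (log axes that do not start at the same value) of the 5 genes in each of the 19 libraries, by layer and treatment. Points are animals, crosses mark sheep 209, and bars give the geometric mean and the SD of log2 values of the group without that sheep. PGR separates the layers, ESR1 is higher in granulosa outside sheep 209, and the ESR2 crosses stand for 1.15 and 1.27 normalized counts.

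Sheep 209 held the extremes of both estrogen receptor genes. In granulosa cells ESR1 was 1867, 1421, 2049 and 2509 in controls 244, 246, 268 and 224, and 1029, 2189.9, 1812, 2103 and 1472 in prenatal T sheep 209, 210, 230, 276 and 315. In theca cells ESR1 was 1571, 1429, 1035, 1221 and 1290.0 in controls 139, 244, 246, 268 and 224, and 8246, 1255, 1349, 1186 and 1217 in the prenatal T sheep in the same order. The library of sheep 209 labelled theca was thus the highest of all 19 and its library labelled granulosa the lowest, and the treatment groups overlapped in both layers. In the other 17 libraries the theca values ran from 1035 to 1571 and the granulosa values from 1421 to 2509, so the layers overlapped between 1421 and 1571, while within each of the 8 animals granulosa was higher.

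ESR1 was higher in granulosa than in theca cells of these 8 animals, at 121% to 194% of the animal's own theca value. With all 9 animals the difference was 0.21 ± 0.35 (limma, adjusted p = 0.633), and without sheep 209 it was 0.61 ± 0.08 (adjusted p = 3.40e-05). In sheep 209 the difference went the other way, with the library labelled granulosa at 12.5% of the library labelled theca. Without it, the difference was 0.64 ± 0.12 in controls (adjusted p = 0.00112, higher in 4 of 4) and 0.58 ± 0.12 in prenatal T animals (adjusted p = 0.00162, higher in 4 of 4). In the fit with all animals, where the arms share 1 estimate of the spread, the control difference had the same size with an SE of 0.52 (adjusted p = 0.359). A lower share of cells that make a transcript and less of it per cell cannot be told apart in these pooled layers, here and for every gene that follows.

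ESR2, the receptor usually assigned to granulosa cells, lay in the same range in theca and granulosa libraries of controls. In granulosa cells it was 270.2, 175, 227 and 178 in controls 244, 246, 268 and 224, and 1.15, 270.2, 232, 327 and 207 in prenatal T sheep 209, 210, 230, 276 and 315. In theca cells it was 188, 223, 201, 232 and 213 in controls 139, 244, 246, 268 and 224, and 1.27, 223, 176, 225 and 144 in the prenatal T sheep. Each library of sheep 209 held 1 read of ESR2 (95% Poisson interval 0.025 to 5.57 reads, counting error only), and the others held 127 to 321 reads. Outside sheep 209 both layers and both treatments overlapped.

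Across all animals the layer difference of ESR2 was 0.16 ± 0.12 (95% interval -0.10 to 0.42, limma adjusted p = 0.269), and without sheep 209 it was 0.19 ± 0.11 (-0.05 to 0.43, adjusted p = 0.159). By treatment, without sheep 209, it was -0.05 ± 0.12 in controls (adjusted p = 0.753, higher in granulosa in 1 of 4 animals) and 0.43 ± 0.12 in prenatal T animals (adjusted p = 0.0130, higher in 4 of 4). With sheep 209 the prenatal T value was 0.33 ± 0.14 and was not called (adjusted p = 0.0865), although edgeR called it on the recovered reads of all libraries (0.43, adjusted p = 0.0220). The test of the difference between the arms was not past the threshold, at 0.38 ± 0.21 with all animals (adjusted p = 0.960) and 0.48 ± 0.18 without sheep 209 (unadjusted p = 0.019, adjusted p = 0.537). An ESR2 layer difference particular to prenatal T animals was therefore not shown.

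PGR was the only 1 of the 5 genes called between the layers with all animals, and it was lower in granulosa cells of every animal. In granulosa cells it was 535, 562, 595 and 337 in controls 244, 246, 268 and 224, and 492, 443, 693, 303 and 727 in prenatal T sheep 209, 210, 230, 276 and 315. In theca cells it was 1477, 1564, 1884, 2498 and 1171 in controls 139, 244, 246, 268 and 224, and 2271, 2169, 2364, 1336 and 2045 in the prenatal T sheep. The highest granulosa value lay below the lowest theca value, so the layers did not overlap, while the treatments overlapped within each layer. Sheep 209 lay within the range of the other prenatal T animals in both. The granulosa level was 20.4% to 35.6% of the animal's own theca level, and the log2 difference was -1.89 ± 0.09 (limma, adjusted p = 8.93e-08), or -1.86 ± 0.09 without sheep 209 (adjusted p = 1.67e-08). It was -1.79 ± 0.13 in controls (adjusted p = 2.81e-05, lower in 4 of 4) and -1.98 ± 0.12 in prenatal T animals (adjusted p = 3.16e-06, lower in 5 of 5). The difference between the arms was -0.19 ± 0.18 (95% interval -0.59 to 0.21, adjusted p = 0.960), and without sheep 209 it was -0.13 ± 0.18 (-0.53 to 0.26, adjusted p = 0.858).

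PGRMC1, whose product is linked to progesterone action at membranes and to cytochrome P450 enzymes, was slightly lower in granulosa cells outside sheep 209. In granulosa cells it was 1649, 2881, 2278 and 2062 in controls 244, 246, 268 and 224, and 1808, 1995, 2462, 2513 and 3269 in prenatal T sheep 209, 210, 230, 276 and 315. In theca cells it was 2029.8, 2177, 3144, 2639.8 and 2669 in controls 139, 244, 246, 268 and 224, and 1184, 2525, 2785, 3724 and 4080.0 in the prenatal T sheep. Sheep 209 was the lowest of all theca libraries, sheep 315 was the highest animal in both layers, and all groups overlapped. The granulosa library of sheep 315 had the highest sum of the 11 epithelial markers outside sheep 209, at 4382. Its 5 luteal markers (named below) summed to 7517, against 529 to 1772 in the other granulosa libraries outside sheep 209. Whether this bears on its PGRMC1 level was not tested. Granulosa was lower than theca in 8 of 8 animals other than sheep 209, at 67.5% to 91.7%, and in sheep 209 it was 153%. The log2 difference was -0.21 ± 0.10 with all animals (limma, adjusted p = 0.0944) and -0.31 ± 0.05 without sheep 209 (adjusted p = 0.000304). Without sheep 209 it was -0.28 ± 0.08 in controls (adjusted p = 0.0120) and -0.35 ± 0.08 in prenatal T animals (adjusted p = 0.00283).

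NR3C1, the receptor for cortisol, did not differ detectably between the layers. In granulosa cells it was 1729, 3187, 2115 and 1519.6 in controls 244, 246, 268 and 224, and 2494, 1838, 2509.9, 1849.7 and 1709.9 in prenatal T sheep 209, 210, 230, 276 and 315. In theca cells it was 1890.2, 1851, 2384, 1805 and 1624 in controls 139, 244, 246, 268 and 224, and 1641, 2137, 2275, 2147 and 1804 in the prenatal T sheep. Sheep 246 was the highest and sheep 224 the lowest control in both layers, and all groups overlapped. The layer difference was 0.08 ± 0.09 with all animals (95% interval -0.12 to 0.27, limma adjusted p = 0.491) and 0.01 ± 0.07 without sheep 209 (-0.15 to 0.17, adjusted p = 0.910). Granulosa was higher in 4 of 9 animals. Sheep 209 was the lowest prenatal T animal in theca cells and within the range of the others in granulosa cells.

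**Figure D2:**
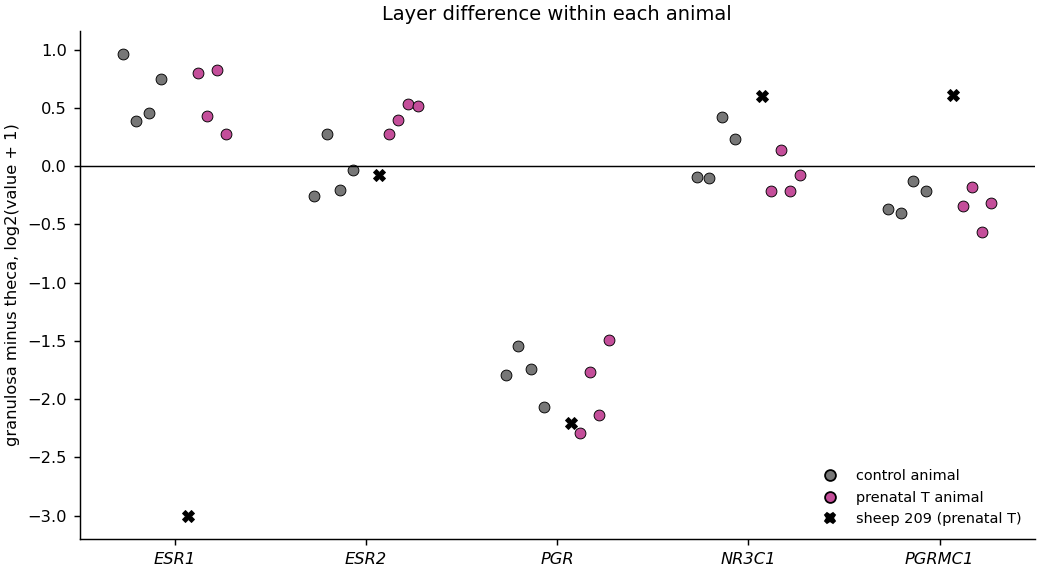
Difference between granulosa and theca cells of the same animal, in log2(value + 1), for the 5 genes. Each point is 1 animal (9 in all), crosses are sheep 209, and the line at 0 marks equal levels; every PGR point lies below it, and the ESR1 cross lies at -3.00 while the other 8 ESR1 points lie above 0.

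In counts, 1 of the 5 genes was called between layers with all animals, against a background of 56.6% of the 16269 genes tested (28.0% lower and 28.6% higher in granulosa). Without sheep 209, 3 of 5 were called, 1 higher and 2 lower, against 62.7% of 16021 genes (31.7% higher, 31.0% lower). In controls 1 of 5 was called with all animals, the lower PGR (background 37.5%, with 18.7% higher and 18.8% lower). Without sheep 209 it was 3 of 5, with ESR1 higher and PGR and PGRMC1 lower (background 47.7%, with 24.4% higher and 23.4% lower). In prenatal T animals 1 of 5 was called with all animals, again PGR (background 43.4%, with 21.3% higher and 22.1% lower). Without sheep 209 it was 4 of 5, with ESR1 and ESR2 higher and PGR and PGRMC1 lower (background 53.3%, with 26.0% higher and 27.4% lower). A difference between these shares and those of all genes was not tested.

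Each layer library also held markers of the other layer, and these were set beside PGR and ESR2. In the 8 animals other than sheep 209, the median of the 9 theca markers in granulosa libraries was 6.45% to 20.5% of the theca level, and the granulosa level of PGR was above it in 8 of 8 animals, by 1.45 to 3.51 times. The highest single theca marker there was at 23.9% to 64.2%, and PGR lay below it in 7 of 8 animals, so PGR was within the spread of the markers. For ESR2 the theca level was 69.0% to 119% of the granulosa level (median 82.5%), while the median of the 6 granulosa markers in theca libraries was 11.4% to 23.8% of their granulosa level. ESR2 was above that median in 8 of 8 animals, and above the highest single granulosa marker (57.3% to 113%) in 7 of 8. The part that RNA of the other layer has in the ESR1, PGRMC1 and NR3C1 levels was not tested.

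**Figure D3:**
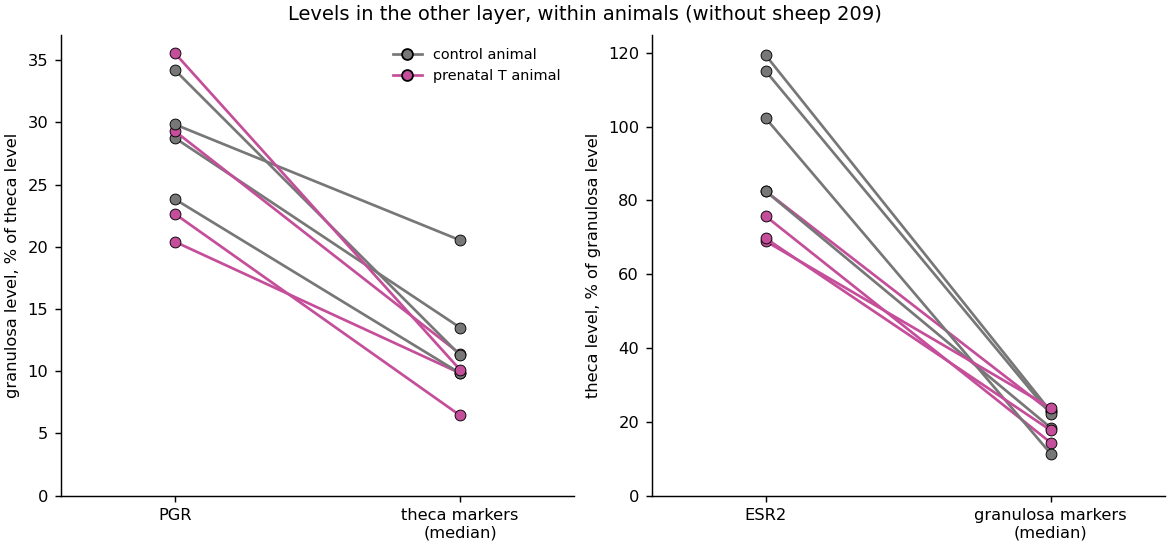
Level in the other layer as a percentage of the animal's own reference layer, for PGR beside the median of the theca markers (granulosa as % of theca) and for ESR2 beside the median of the granulosa markers (theca as % of granulosa). Lines join the values of an animal, grey for controls and magenta for prenatal T, for the 8 animals other than sheep 209, and both receptors lie above the marker median in 8 of 8.

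Comparing the prenatal T animals with controls within a layer asks whether exposure to testosterone before birth is accompanied by another receptor level in the adult follicle. None of the 5 genes was called in either layer, with or without sheep 209. The background was the same, with 0% of 14724 genes called in granulosa cells and 0% of 15492 in theca cells by limma. At an unadjusted limma p under 0.05 there were 622 genes in granulosa and 1192 in theca cells. A share of about 0.05 of the genes tested is expected there if no gene differs. Of the other tools, edgeR called 0 in both layers and DESeq2 called 16 and 9. By limma, the smallest adjusted p among these genes was that of PGRMC1 in theca cells without sheep 209 (adjusted p = 0.424).

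In granulosa cells without sheep 209 (4 animals each) ESR1 differed by -0.04 ± 0.19 (95% interval -0.46 to 0.39) and ESR2 by 0.29 ± 0.21 (-0.18 to 0.76). PGR differed by 0.04 ± 0.30 (-0.64 to 0.72), NR3C1 by -0.07 ± 0.23 (-0.58 to 0.44) and PGRMC1 by 0.21 ± 0.20 (-0.23 to 0.65). The limma adjusted p of these 5 differences lay between 0.782 and 0.980. With sheep 209 ESR2 turned to -1.09 ± 1.39 (-4.22 to 2.03) and ESR1 was -0.21 ± 0.25 (-0.78 to 0.36), while PGR was 0.03 ± 0.29, NR3C1 0.00 ± 0.23 and PGRMC1 0.12 ± 0.21. The interval for PGR without sheep 209 reaches a change of more than 0.6 in either direction, so a change of that size was not excluded. The summed smooth muscle and pericyte markers in granulosa libraries were 26537 to 41845 in controls and 17469 to 25850 in prenatal T animals other than sheep 209, without overlap, and the theca markers were 33463 to 79158 and 20510 to 39281. Their part in these differences was not tested.

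In theca cells without sheep 209 (5 controls, 4 prenatal T) PGRMC1 was 0.36 ± 0.17 higher in prenatal T animals (95% interval -0.01 to 0.74, limma adjusted p = 0.424), with means of 3278 ± 742 (SD, n = 4) and 2532 ± 442 (n = 5) normalized counts. PGR differed by 0.22 ± 0.22 (-0.27 to 0.71), NR3C1 by 0.14 ± 0.12 (-0.13 to 0.40), ESR1 by -0.05 ± 0.12 (-0.32 to 0.22) and ESR2 by -0.16 ± 0.17 (-0.52 to 0.21). The narrowest intervals were thus those of ESR1 and NR3C1. With sheep 209 the ESR1 difference was 0.49 ± 0.49 (-0.58 to 1.57) and that of ESR2 -1.44 ± 1.12 (-3.91 to 1.04), and that of PGRMC1 was 0.07 ± 0.30, while PGR was 0.26 ± 0.22 and NR3C1 0.07 ± 0.13. The prenatal T mean of ESR1 was 2651 ± 3128 (SD, n = 5) with sheep 209 and 1252 ± 70.8 (n = 4) without it, against 1309 ± 204 in controls (n = 5). The theca markers in theca libraries summed to 629920 to 858237 in controls and 569711 to 689653 in prenatal T animals other than sheep 209. The 5 genes listed as luteal markers (OXT, PTGFR, LHCGR, HSD3B1 and STAR) summed to 3273 to 4667 and 4580 to 8526. Of their differences 5 of 5 lay above 0 (median 0.63), and 6 of 6 granulosa markers also lay above 0 (median 0.45), none of them called. Between the layers, without sheep 209, 4 of these 5 listed genes were called higher in theca than in granulosa. Whether their sum reflects luteal cells was not tested. In the library of sheep 209 labelled theca the luteal sum was 353. Their part in these differences, that of PGRMC1 included, was not tested.

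**Figure D4:**
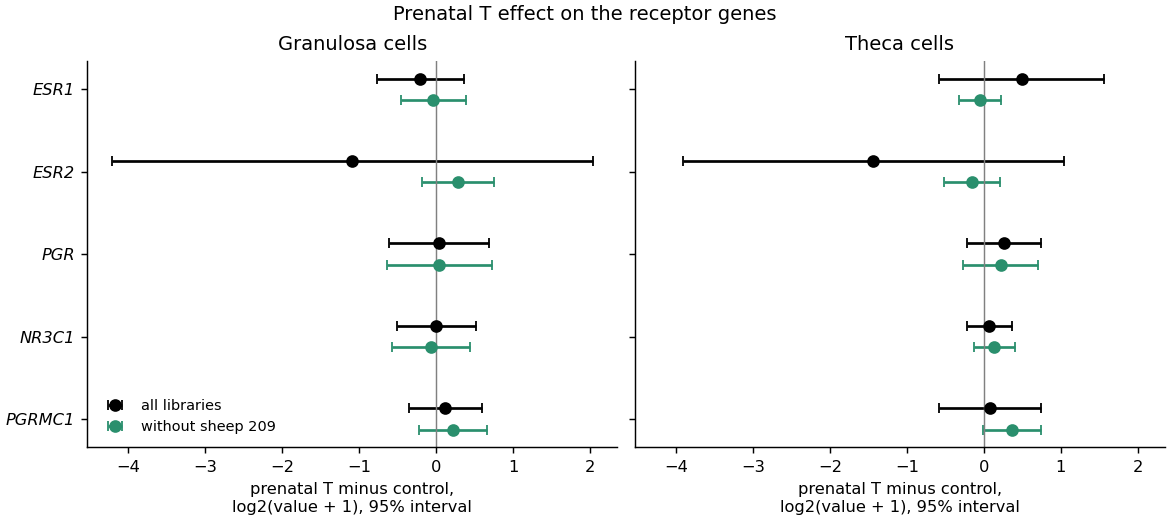
Prenatal T minus control difference of the 5 genes in log2(value + 1), in granulosa (left) and theca cells (right), with 95% confidence intervals from limma. Values are drawn with all animals and without sheep 209; every interval includes 0, and the ESR2 intervals with sheep 209 are the widest in both layers.

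The prenatal T effect did not differ detectably between the layers for any of the 5 genes. By limma 0% of the 16269 genes tested were called for this difference. At an unadjusted p under 0.05 there were 758 genes, and 1326 without sheep 209. A share of about 0.05 of the genes tested is expected there if no gene differs. Besides ESR2 and PGR above, the difference of effects without sheep 209 was -0.06 ± 0.16 for ESR1, -0.07 ± 0.11 for PGRMC1 and -0.21 ± 0.14 for NR3C1. Their 95% intervals were -0.42 to 0.31, -0.31 to 0.17 and -0.51 to 0.10. With all animals the values were -0.77 ± 0.69 for ESR1, 0.12 ± 0.21 for PGRMC1, of the other sign, and -0.07 ± 0.19 for NR3C1.

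The log2 ratio of ESR2 to ESR1 within a library, taken from log2(value + 1), describes shifts in the balance of the 2 estrogen receptor genes. Where ESR2 has 1 read the added 1 makes it depend on the scaling. Without sheep 209 the mean ratio was -3.19 ± 0.44 in control granulosa (SD, n = 4), -2.87 ± 0.15 in prenatal T granulosa (n = 4), -2.61 ± 0.28 in control theca (n = 5) and -2.72 ± 0.33 in prenatal T theca (n = 4). It was -8.90 and -11.8 in the libraries of sheep 209 labelled granulosa and theca. Without that sheep the ratio was 0.42 log2 units lower in granulosa than in theca of the same animal (difference -0.42, two-sided exact permutation p = 0.0391, adjusted over 4 tests p = 0.156), which did not pass after adjustment. With all animals the difference was -0.05 (exact permutation p = 0.9375). Prenatal T minus control was 0.32 in granulosa (exact permutation p = 0.200) and -0.11 in theca (exact permutation p = 0.619) without sheep 209, and -0.88 (exact permutation p = 0.952) and -1.93 (exact permutation p = 0.302) with it. With sheep 209 and CPM scaling the last 2 differences were -0.28 and -1.29. The difference of effects was 0.54 without sheep 209 (exact permutation p = 0.114) and 1.16 with it (exact permutation p = 0.0952).

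The genes around the receptors were grouped in 11 lists by role, chosen with earlier results of these data known. None of their genes was called for prenatal T in either layer, nor for the difference of effects, with or without sheep 209. With all animals, 8 chaperones, 5 coactivators and 2 glucocorticoid response genes were higher in granulosa. Also higher were 1 membrane progesterone receptor or partner, 2 estrogen response genes and 5 other nuclear receptors. Of the handling genes of glucocorticoids 3 of 4 were lower, among them HSD11B1, which passed the filter only through sheep 209. The other counts equal those given next without sheep 209. Between layers, without sheep 209, counts are given as higher or lower in granulosa, against the background of 31.7% and 31.0% above, and the median of all genes was 0.02. Of 17 chaperones and cochaperones that fold the receptors, 9 were higher and 2 lower, with a median difference of 0.19. They included HSPA8, a constitutive Hsp70 (0.68 ± 0.07), the Hsp90 activator AHSA1 (0.59 ± 0.06) and FKBP4, an immunophilin of receptor complexes (0.52 ± 0.07). Of 12 corepressors, 8 were higher (median 0.22), with NCOR1 and NRIP1 higher by 0.32 ± 0.05 and 0.36 ± 0.05. Of 20 coactivators, 7 were higher and 7 lower (median 0.04), with the chromatin remodeller SMARCA2 at -2.13 ± 0.08 and the RNA helicase DDX5 at 0.39 ± 0.04.

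Among the genes that act on estrogen or answer to it, HSD17B1, which turns estrone into estradiol, was higher in granulosa cells by 2.13 ± 0.09 (limma, adjusted p = 1.21e-08), and it is also one of the granulosa markers used here. In all, 2 of 3 tested estrogen conversion genes were higher and 1 lower (median 0.19), the lower being STS, steroid sulfatase (-0.61 ± 0.17). Of 10 estrogen response genes, 3 were higher and 4 lower (median -0.10). GREB1, an ESR1 cofactor and target, was 0.85 ± 0.06 higher (adjusted p = 2.73e-07; 0.53 and not called with sheep 209, adjusted p = 0.131), while IGFBP4, which binds insulin-like growth factors, and the chemokine CXCL12 were lower by -3.23 ± 0.15 and -2.92 ± 0.15. GPER1, the membrane estrogen receptor, stayed at 0 to 9.93 normalized counts in all 19 libraries and was not tested. ESRRA, the 1 estrogen-related receptor tested without sheep 209, differed by 0.09 ± 0.08 (adjusted p = 0.379).

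Of 8 genes known as PGR targets in the ovulatory follicle, 3 were higher and 4 lower in granulosa cells (median -0.31). ADAMTS1, a matrix protease, and CXCR4, the receptor of CXCL12, were lower by -2.07 ± 0.18 and -1.57 ± 0.22. PPARG, a lipid-sensing nuclear receptor, and HIF1A, the hypoxia-regulated factor, were higher by 2.38 ± 0.10 and 1.83 ± 0.10. These targets thus did not all take the direction of PGR itself. Of 9 membrane progesterone receptors and PGRMC1 relatives and partners, 2 were higher and 6 lower (median -0.49). The lower ones included NENF, a PGRMC1 relative (-0.49 ± 0.06), TMEM97, a sigma-2 receptor that binds PGRMC1 (-0.70 ± 0.12), PAQR8, a membrane progesterone receptor (-0.70 ± 0.14), and PGRMC2 (-0.23, adjusted p = 0.0173). SERBP1, a PGRMC1 partner, was 0.41 ± 0.07 higher.

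On the glucocorticoid side, the layers differed in genes that handle the hormone while NR3C1 did not differ detectably. NR3C2, the mineralocorticoid receptor, which also binds cortisol, was 11.8 to 55.6 normalized counts in granulosa and 69.3 to 228 in theca libraries outside sheep 209, without overlap. Its difference was -2.29 ± 0.24 (limma, adjusted p = 5.23e-06, lower in granulosa in 8 of 8 animals). HSD11B2, which inactivates cortisol, was 1.15 to 14.0 in granulosa and 20.5 to 64.9 in theca, a difference of -3.11 ± 0.32 (adjusted p = 5.64e-06, 8 of 8). H6PD, which supplies the cofactor of HSD11B1, was 0.54 ± 0.06 higher in granulosa. HSD11B1, which regenerates cortisol, was 0 to 5.06 in granulosa and 0.873 to 19.2 in theca outside sheep 209 and was not tested without that sheep, whose libraries held 689 and 623. With all animals HSD11B1 passed the filter on low values only through the libraries of sheep 209, and it was called at -1.56 ± 0.56 (limma, adjusted p = 0.0315). By arm it was -0.83 ± 0.82 in controls (adjusted p = 0.453, lower in granulosa in 2 of 4). In prenatal T animals it was -2.14 ± 0.73 (adjusted p = 0.0372). No layer difference of HSD11B1 is drawn from these values. With all animals NR3C2 was -1.93 ± 0.37 and HSD11B2 -2.68 ± 0.47, and both were still called (adjusted p = 0.00106 and 0.000529).

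**Figure D5:**
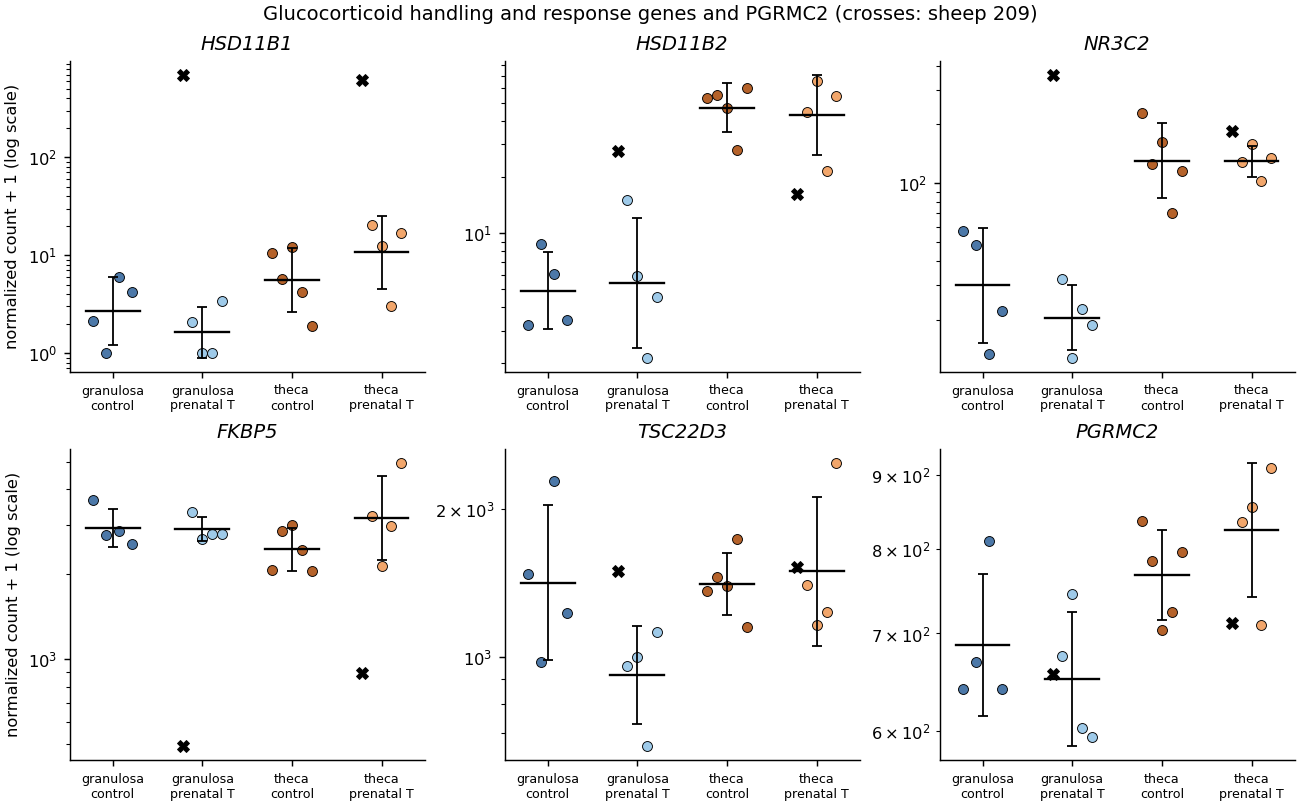
Normalized counts plus 1 (log axis) of HSD11B1, HSD11B2, NR3C2, FKBP5, TSC22D3 and PGRMC2 in each of the 19 libraries by layer and treatment, with crosses for sheep 209 and bars for the geometric mean and the SD of log2 values of the other animals. HSD11B2 and NR3C2 are lower in granulosa than in theca outside sheep 209, and HSD11B1 is 689 and 623 in the libraries of sheep 209 against at most 19.2 elsewhere.

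Of 15 glucocorticoid response genes, 3 were higher and 6 lower in granulosa cells (median -0.21). SGK1, a kinase induced by glucocorticoids, was 1.06 ± 0.15 higher, and KLF9, a Krüppel-like factor, was lower by -1.23 ± 0.21. FKBP5, the classical target that feeds back on NR3C1, differed by 0.03 between layers, and its range outside sheep 209 was 2553 to 3654 in granulosa and 2052 to 4945 in theca. TSC22D3 (GILZ) differed by -0.35 (limma, adjusted p = 0.0566). By arm, without sheep 209, it was -0.002 ± 0.16 in controls (adjusted p = 0.993) and -0.70 ± 0.16 in prenatal T animals (adjusted p = 0.00352, lower in 4 of 4). With sheep 209 the latter was -0.57 (adjusted p = 0.0201). The difference between the arms without sheep 209 was -0.70 ± 0.22 (unadjusted p = 0.0102, adjusted p = 0.537), not past the threshold. In granulosa cells the prenatal T difference of TSC22D3 without sheep 209 was -0.63 ± 0.26 (unadjusted p = 0.041, adjusted p = 0.712). That of DUSP1, a phosphatase also counted as a glucocorticoid target, was 0.74 ± 0.24 (unadjusted p = 0.0119, adjusted p = 0.704). TSC22D3 and DUSP1 thus had opposite signs, and KLF15, of the same list, was -0.38 ± 0.13 (limma, unadjusted p = 0.0198, adjusted p = 0.704). Of the 15 response genes 10 lay below 0 and 5 above in this comparison. Their median was -0.25 against -0.013 for all genes, and none was called. Of 27 other nuclear receptors, 6 were higher in granulosa, NR5A2 among them (2.45 ± 0.14), and 13 lower, with a median of -0.20. The lower ones included NR2F2 (-2.69 ± 0.11), which is also one of the theca markers used here.

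Genes with the most similar pattern were sought by Pearson's r of log2 values over the 17 libraries other than those of sheep 209, which share animals, layers and treatments. For PGR these were IL33 (r = 0.97), SRPX2 (0.96) and IGFBP4 (0.96). For ESR1 they were DOCK9 (0.91), CIB2 (0.91) and PRR15 (0.90), with r of 0.41, 0.28 and 0.42 over all 19 libraries. For NR3C1 they were C7H14orf119 (0.90), IGBP1 (0.87) and OSBPL9 (0.85), for PGRMC1 FDX1 (0.85), ANAPC16 (0.85) and AGTR2 (0.84), and for ESR2 CLPB (0.83), WDR7 (0.82) and NOP14 (0.81). Over all 19 libraries those of ESR2 were 0.089, -0.79 and 0.13, while those of PGR were 0.73, 0.88 and 0.92, those of NR3C1 0.83, 0.88 and 0.87 and those of PGRMC1 0.84, 0.62 and 0.83. The likeness to ESR2 thus rested on smaller r than that to PGR, whose pattern carries the layer difference. After each layer's mean was subtracted, the gene most like PGR was S1PR3 (0.83), most like ESR2 GNL2 (0.85), most like NR3C1 EEA1 (0.90) and most like PGRMC1 ERP44 (0.91). Over all 19 libraries these were 0.82, 0.13, 0.66 and 0.11. Among the 5 genes themselves, the largest r was that of ESR1 with PGR, -0.86 over the 17 libraries and -0.53 within layers. ESR1 and PGRMC1 had -0.68 and -0.66, so that pair kept its value within layers.

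In the RefSeq annotation of assembly ARS-UI_Ramb_v3.0, used for neighbours only, ESR1 overlaps 1 long non-coding RNA gene (LOC114116119) and ESR2 overlaps 1 small nuclear RNA gene (LOC114115919). PGR, NR3C1 and PGRMC1 overlap none. The sources used here do not give whether strand was used in the counting, so reads of the overlapping pairs may not be separable.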

How the data were processed

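Values in the deposited table are a signal: gene counts that the authors scaled by 1 size factor for each library. Per the submitters' processing notes the tools were STAR 2.6.0c, featureCounts (Subread 1.6.1), DESeq2, FastQC 0.11.5 and MultiQC 0.9, with no role or order stated. The sources used here do not name the genome build. Within a library, 100% of the values equalled a whole number times the value of 1 read, to a relative tolerance of 1e-06, and these whole numbers served as reads for the count tests and for depth. Of the 28524 genes, 24823 were above 0 in some library, and animals, not pooled samples, are the replicates.

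Tests were two-sided and used limma 3.58.1 in R 4.3.3, with a trend of variance on mean level, on log2(value + 1) of genes that reached a value of 10 or more in 5 or more libraries of the fit, with Benjamini-Hochberg adjustment over all genes and a threshold of 0.05. Prenatal T was tested within a layer. The layer difference and the difference of effects had the animal as a block. Both layers of an animal come from the same sheep per the labels, and their deviations from group means correlated, with r from 0.42 to 0.80 over genes (not independent replicates) and the own layer the best match in 9 of 9 animals. No repeated library was found (36 pairs of libraries of the same group, smallest chi-square per degree of freedom 26.9). The ratio of ESR2 to ESR1 was tested by exact permutation. Alternatives were edgeR 4.0.16 (quasi-likelihood) and DESeq2 1.42.0 on recovered reads, a pseudocount of 8, no filter, the other block setting and leaving out each animal. The other scaling of recovered reads was TMM (trimmed mean of M values) for the gene-wide fits and CPM for the ratio. The gene-wide fits were also run on simulated counts, drawn with no shared effect of the animal and no animal like sheep 209. That run therefore cannot show how the fits behave where these are present. Counting error was at most 8.87% for ESR2 outside sheep 209 and 6.15% for the other genes.

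The genes and lists were chosen with earlier results of these data known. Named are the 5 genes, from each list those of smallest p (3 per layer for prenatal T, 2 for the difference of effects, 4 between layers), of which the text gives a part, and the 3 genes of highest r; some genes the rule selects are not reported here. Lists share FKBP5, ZBTB16, PPARG, RARA, HSD17B1 and NR2F2. No sequences or coordinates were used.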

Additional observations from a re-analysis of the deposited data

Results flagged for a closer look

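In groups of 4 to 10 libraries, a library was singled out where its gap to the nearest other, divided by the range of the group on the log2 scale, was above Dixon's 95% value. Chance alone gives about 1 in 20 groups. Of 52 groups tested, 9 had such a library, and 8 of the 9 were sheep 209.

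In prenatal T theca libraries the share was 0.933 for ESR1 (8246 normalized counts, far above the others), 0.904 for ESR2 (1.27) and 0.928 for the log2 ratio of ESR2 to ESR1. In prenatal T granulosa libraries it was 0.910 for ESR2 (1.15), 0.947 for the ratio, 0.885 for FKBP5 (494, low), 0.814 for HSD11B1 (689, high) and 0.722 for NR3C2 (357, high). The remaining library was the theca library of prenatal T sheep 276, where PGR was 1336 and the other 4 prenatal T values were 2045 to 2364 (share 0.745).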

How the results depend on the processing

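Of the alternatives tried, 598 values kept their direction and call, 34 reversed, 14 passed the threshold that the value with all libraries missed, and 8 counts of genes moved by over 1.5 times. The PGR layer difference kept both under every alternative, at -1.94 to -1.84 over the fits that left out 1 animal. The cause of the changes was not tested, except where fewer libraries or the setting itself give it.

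Genes called for prenatal T numbered 16 in granulosa and 9 in theca cells by DESeq2 and 1 in granulosa cells with the replicate block, against 0, and DESeq2 called 16 for the difference of effects against 0. With no replicate block the layer difference called 5729 genes against 9210, in controls 2691 against 6098 and in prenatal T animals 3048 against 7066. The block, or its absence, changed no other call. Without sheep 268 the count in controls was 3971, and without sheep 209 it was 7650, the range over animals left out.

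For NR3C1 the prenatal T difference in granulosa was -0.0035 by edgeR and -0.018 by DESeq2. In prenatal T animals the layer difference of ESR1 was 0.0093 by edgeR and 0.0090 by DESeq2, and that of ESR2 was 0.43 by both, past the threshold (adjusted p = 0.0220 and 0.00850). DESeq2 gave no p for ESR1 in theca cells.

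edgeR without sheep 209, chosen after seeing the data, gave prenatal T differences of 0.31 for ESR2 and -0.082 for NR3C1 in granulosa and -0.053 for ESR1 in theca. It gave layer differences of 0.64 for ESR1 and -0.29 for PGRMC1, in controls 0.68 and -0.24, and in prenatal T animals 0.60 and -0.34, with 0.45 for ESR2 and -0.076 for NR3C1. The difference of effects of PGRMC1 was -0.096.

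Leaving out 1 animal at a time, prenatal T differences in granulosa ranged from -1.53 to 0.29 for ESR2, -0.15 to 0.22 for PGR, -0.14 to 0.21 for NR3C1 and -0.015 to 0.25 for PGRMC1. In theca they ranged from -0.052 to 0.65 for ESR1 and -0.084 to 0.36 for PGRMC1. Layer differences ranged from 0.11 to 0.61 for ESR1 and -0.31 to -0.17 for PGRMC1, and both passed the threshold only when sheep 209 was the animal left out. In controls they were 0.53 to 0.72 for ESR1, -0.16 to 0.014 for ESR2 and -0.33 to -0.24 for PGRMC1. In prenatal T animals they were -0.37 to 0.58 for ESR1, 0.28 to 0.43 for ESR2, -0.092 to 0.11 for NR3C1 and -0.35 to -0.057 for PGRMC1. The difference of effects ranged from -0.21 to 0.035 for NR3C1 and -0.073 to 0.22 for PGRMC1. The log2 ratio of ESR2 to ESR1 ranged from -1.23 to 0.32 for prenatal T in granulosa and -0.42 to 0.097 between layers. Depth limits ESR2 most, at 127 to 321 reads outside sheep 209.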
